A study of Rattus norvegicus with 16 samples.

Results

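Heat shock proteins and chaperones were followed across the stomach and the middle intestine of suckling rats. The genes were taken by name: every gene name on the array that starts with Hspa, Hspb, Hspd, Hspe, Hsph or Hsp90, with Dnaja, Dnajb or Dnajc and a number, or with Cct and a number. This gave 79 genes of 26113 gene names, and they were covered by 99 of 30367 probes. Where a gene had several probes, the one brightest in Cy5 on average was used. Of the 79 genes, 71 entered the tests because they were well above background on all 4 arrays of at least 1 group. The other 8 (Cct6b, Cct8l1, Dnajb13, Dnajb7, Dnajb8, Dnajc5b, Dnajc5g and Hspa1l) did not pass that filter and are named only. The filter was met on all 16 arrays by 68 of the 71 genes. The exceptions were Hspb3, which was well above background on all 4 arrays of each stomach group and on 2 arrays of each intestine group, and Hspa4l and Dnajc30, which each missed 1 C intestine array.

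Stomach and middle intestine were each sampled from C rats and from OH rats, which gave 4 groups of 4 arrays, all from pups labelled as Wistar rat (Wistar Han in the methods). OH pups were given obestatin, a peptide cut from the precursor of ghrelin, by mouth in 2 daily doses of 250 nmol/kg, starting at 14 and ending at 21 days of age, and C pups were given saline in the same way. All pups were suckling and came from 4 litters per treatment, and tissue was taken at the end of that week. The methods name middle jejunum among the segments collected, but for the arrays only the middle part of the intestine. Each array paired the RNA of 1 rat, labelled with Cy5, with a common reference, labelled with Cy3, that pooled RNA of all the rats, with no dye swap. Every level given here is the log2 of the Cy5 over the Cy3 signal, so 0 means as much as in the pool. A log2 value of this kind is relative to the gene's own level in the pool and is not set against that of another gene. RNA came from whole tissue, in which more cells of a type and more RNA per cell cannot be told apart.

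Chaperones hold unfolded proteins, fold them with the use of ATP, or hand them on for destruction. Hsp70 proteins (Hspa genes) bind short stretches of a client, J proteins (Dnaja, Dnajb and Dnajc genes, also called Hsp40) bring the client and start ATP hydrolysis, and Hsp110 proteins (Hsph1, Hspa4, Hspa4l) exchange the nucleotide. Chaperonins are closed chambers, Hsp60 with Hsp10 in mitochondria and the CCT complex in the cytosol, while small heat shock proteins (Hspb genes) hold clients without ATP. In stress, heat shock factors raise the cytosolic and mitochondrial genes through heat shock elements, and the unfolded protein response raises those of the endoplasmic reticulum through its own stress element.

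These elements were looked for in the RefSeq promoters (assembly GRCr8, 250 bases before to 50 after the start), which were matched by symbol for 64 of the 79 genes. The stretches below are shown because they hold elements of some of the genes described in what follows. In the first 3, capitals mark the GAA and TTC units of a heat shock element, each 2 bases from the next. In the other 4, capitals mark both blocks of the endoplasmic reticulum stress element (CCAAT and CCACG with 9 bases between, or CGTGG and ATTGG on the other strand).
Hspd1, chr9:64084250-64084287, minus strand, bases -250 to -213: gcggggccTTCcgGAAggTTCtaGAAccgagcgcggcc
Hspe1, chr9:64084250-64084291, plus strand, bases -77 to -36: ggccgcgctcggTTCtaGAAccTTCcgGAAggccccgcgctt
Hsph1, chr12:10427320-10427356, plus strand, bases -48 to -12: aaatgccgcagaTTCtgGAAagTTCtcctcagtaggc
Hspa5, chr3:38452961-38453003, plus strand, bases -55 to -13: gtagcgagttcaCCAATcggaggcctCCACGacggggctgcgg
Hsp90b1, chr7:23012439-23012481, minus strand, bases -188 to -146: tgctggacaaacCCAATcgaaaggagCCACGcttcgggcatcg
Hsp90b1, chr7:23012335-23012377, minus strand, bases -84 to -42: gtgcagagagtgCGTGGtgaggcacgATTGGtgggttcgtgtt
Dnajc3, chr15:102432522-102432564, plus strand, bases -145 to -103: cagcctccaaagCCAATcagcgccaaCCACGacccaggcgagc

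Hspd1 (Hsp60) and Hspe1 (Hsp10) lie head to head on chromosome 9, with 289 bases between their starts, so the 4-unit element in the stretch they share is the same element read from both strands. Elements of 4 units or more were found in these 2 of the 64 promoters (3.12%) and in 0.0478% of all 33469 promoters. Elements of 3 units or more were found in 6 (9.38%, against 0.798% of all promoters): Hspd1, Hspe1, Hspa8, Hsph1, Dnaja1 and Cct4. Those of Hspa8, Dnaja1 and Cct4 are not printed above. Elements of 2 units or more were in 20 (31.2%, against 15.9%). The stress element was in Hspa5, Hsp90b1 and Dnajc3 only, 3 of 64 (4.69%, against 0.0657%), and TATAAA was in 7 (10.9%, against 14.2%). Both strands were searched, and a longer heat shock element also counts among the shorter ones. A match is a match of letters. Hspa1b, Hsp90aa1, Dnajb4, Dnajc12, Hspb2 and 10 further genes have no promoter in the table.

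**Figure D1:**
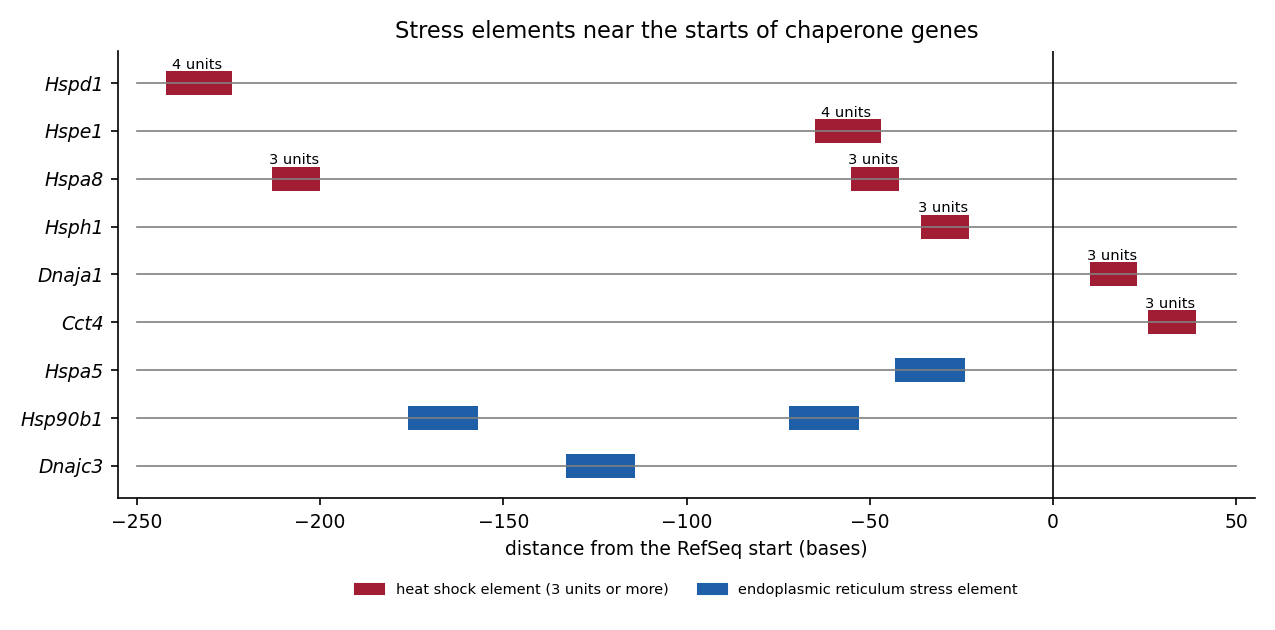
Positions of heat shock elements of 3 units or more (red) and endoplasmic reticulum stress elements (blue) in the RefSeq promoters of 9 chaperone genes, as distance in bases from the start site, which is at 0. The element of Hspd1 begins at base -242 and that of Hspe1 at base -65, and both boxes are the same 4-unit element on opposite strands.

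Most tissue markers followed the labels. All 11 markers of acid-secreting stomach passed the test as higher in stomach, and 11 of 13 enterocyte markers as higher in intestine, in C and in OH rats. Of the other 2 enterocyte markers, Cdx1 passed the other way in C rats (0.37, adjusted p = 0.0226) and Anpep did not pass. The mean log2 ratio of the 13 enterocyte markers was 0.47, 1.04, -0.91 and -0.09 on OH intestine arrays 1 to 4. On C intestine arrays it was -0.54 to 0.10. The part of this spread in the chaperone values was not tested. Arrays of a group lay on 1 slide of its own, the 2 OH slides were scanned on one day and the 2 C slides on another, and the raw median Cy3 signal was 340.8 to 399.2 on OH arrays but 188.2 to 195.3 on C arrays. Treatment, slide and scan day therefore cannot be told apart, and neither can tissue and slide. Muscle RNA varied among stomach samples. The mean log2 ratio of 14 striated muscle genes was 3.70, -0.91, 3.31 and 4.05 on C stomach arrays 1 to 4 and 0.50, -0.33, -0.43 and 0.59 on OH stomach arrays 1 to 4, and -0.86 to -0.61 on intestine arrays. That of 9 smooth muscle genes was -2.26, -2.67, -1.44 and -2.04 in C stomach, 0.97, -1.40, -2.66 and 0.13 in OH stomach, and -1.23 to -0.11 in intestine. Of these lists (18 and 10 genes before the filter), 12 striated and 0 smooth muscle genes were higher in C stomach than in C intestine, and 0 and 3 were lower. In OH rats 2 striated and 0 smooth muscle genes were higher and none was lower. The striated muscle mean was 2.54 in C stomach and -0.69 in C intestine, and the smooth muscle mean -2.10 and -0.59. Because these means differed between the groups, a fit with a muscle mean as a covariate can also take out tissue difference. A call lost in such a fit is therefore no test of the part of muscle.

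The larger contrast was that between the tissues. In C rats 36 of the 71 genes passed the limma test (adjusted p under 0.05 over 21170 probes). Of these, 14 were higher in stomach (19.7%, where 22.7% of all probes tested were) and 22 were lower in stomach (31%, where 22.3% of all probes were). In OH rats 32 passed, 11 higher in stomach (15.5%, all probes 19.2%) and 21 lower (29.6%, all probes 19.1%). Both contrasts called 28 genes (39.4%, all probes 31.2%), each in the same direction, as were 6594 of the 6597 probes called in both. Of the 28 genes, 9 were higher and 19 lower in stomach. A further 8 passed in C only and 4 in OH only, and for none of the genes did the difference between the tissues' responses pass the test. The median log2 difference of all 71 genes was -0.10 in C rats and 0.05 in OH rats, against -0.01 and 0.01 for all probes.

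**Figure D2:**
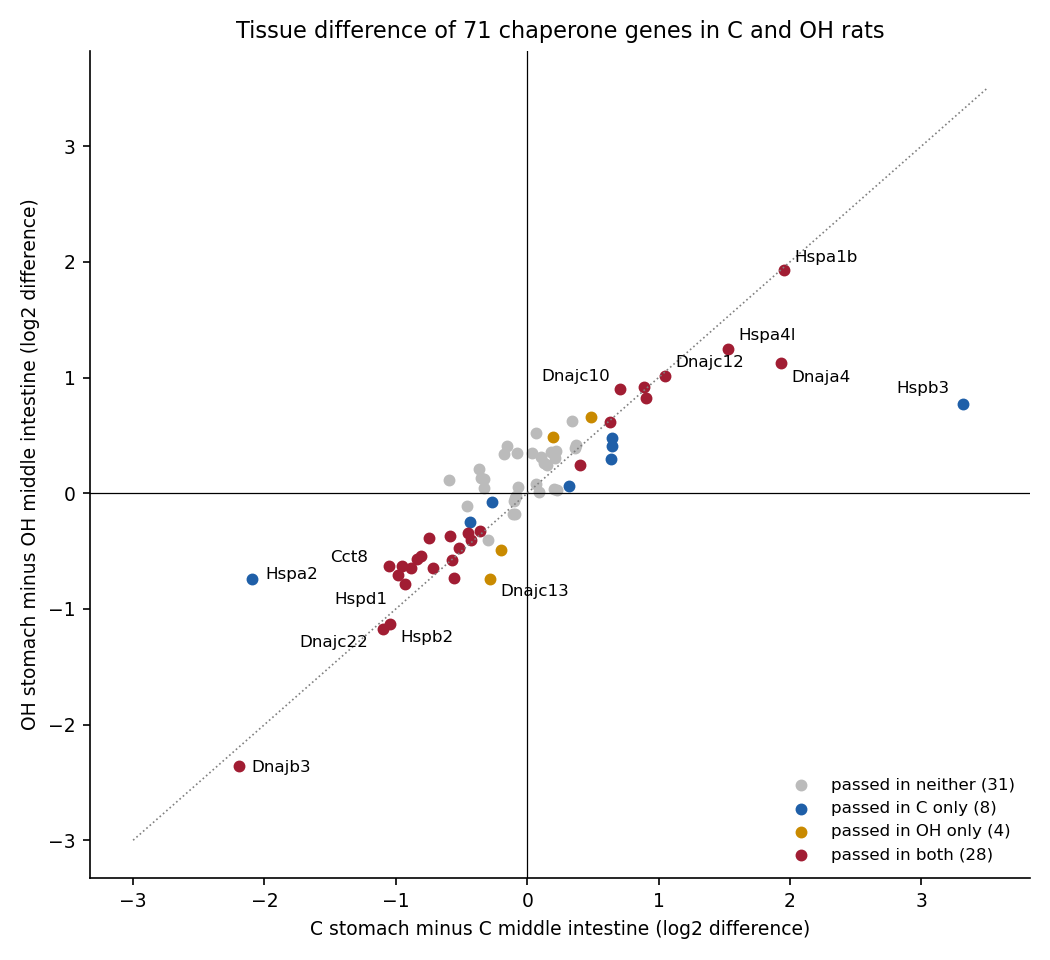
Log2 difference between stomach and middle intestine for the 71 tested chaperone genes, in C rats (horizontal axis) and in OH rats (vertical axis), with colours for the test result in each and a dotted line of equal values. The 28 genes that passed in both lie in the lower left (19 genes) and upper right (9 genes), and Hspb3 and Hspa2, which passed in C only, lie farthest from the line.

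Both genes of the mitochondrial chaperonin were lower in stomach. On the 4 C stomach arrays Hspd1 had log2 ratios of 0.30, 0.45, 0.22 and 0.09, against 1.46, 1.48, 0.84 and 1.00 on the C intestine arrays. In OH rats they were -0.08, 0.20, 0.38 and -0.02 in stomach and 0.94, 0.67, 1.18 and 0.80 in intestine. Every intestine array was above every stomach array. The log2 difference was -0.93 (SE 0.166, adjusted p = 4.13e-04) in C and -0.78 (adjusted p = 0.00186) in OH. Hspe1, whose product closes the Hsp60 chamber, read 0.35, 0.50, 0.15 and -0.08 in C stomach and 1.48, 1.33, 1.32 and 0.75 in C intestine. In OH rats Hspe1 read -0.09, 0.19, 0.61 and 0.08 in stomach and 1.09, 0.83, 0.99 and 0.72 in intestine, again without overlap. Its differences were -0.99 (SE 0.185, adjusted p = 6.17e-04) in C and -0.71 (adjusted p = 0.00745) in OH. With the striated muscle mean as a covariate the C difference of Hspe1 was -0.66 and no longer passed (adjusted p = 0.0672). The array design places the probes for Hspd1 and Hspe1 at chr9:53884368-53884427 and chr9:53898351-53898410 of build rn4, on opposite strands. Of the 8 tested mitochondrial genes, 3 (37.5%) were lower in stomach in both contrasts: Hspd1, Hspe1 and the inner membrane J protein Dnajc15. For all probes it was 22.3% in C and 19.1% in OH. Dnaja3 and Dnajc28 were higher in C stomach (25%, all probes 22.7%). The 2nd probe of Dnaja3 did not follow, with a difference of -0.10 in C rats against 0.65 for the probe used. Dnajc15 was the least stable of the 3: over 32 alternatives to the processing it was called in 24 in C and 17 in OH, with a C difference as small as -0.08, whereas Hspd1 was called in all 32 in both. Hspa9, the Hsp70 of mitochondria, had differences of 0.09 in C and 0.01 in OH and did not pass.

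The cytosolic chaperonin, which folds actin and tubulin, was lower in stomach for part of its subunits. Of 7 tested Cct genes, 4 passed in C rats (Cct8, Cct6a, Cct3 and Cct2) and 3 in OH rats (Cct8, Cct6a and Cct3), all lower in stomach. That was 57.1% in C and 42.9% in OH, where 22.3% and 19.1% of all probes were lower. Cct8 read -0.23, -0.14, -0.31 and -0.40 in C stomach and 1.09, 0.83, 0.61 and 0.60 in C intestine, a difference of -1.05 (SE 0.146, adjusted p = 4.57e-05). In OH rats it read -0.28, -0.25, 0.03 and -0.28 in stomach and 0.32, 0.20, 0.81 and 0.42 in intestine, a difference of -0.63 (adjusted p = 0.00328). The groups did not overlap in either treatment. Cct2 was near the threshold, with -0.27 (adjusted p = 0.0488) in C rats and -0.07 (adjusted p = 0.599) in OH rats. Cct4, Cct5 and Cct7 had differences between -0.10 and 0.26 and did not pass. Tcp1, the subunit that the naming rule leaves out, was lower in stomach by a log2 difference of -0.84 in C (adjusted p = 1.73e-04) and -0.67 in OH (adjusted p = 0.00128). Of Tcp1 and the prefoldin group, which delivers actin and tubulin to CCT, 7 genes were tested. In C 5 were lower in stomach (all probes 22.3%) and in OH 2 (all probes 19.1%), and none was higher.

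Both cytosolic Hsp90 genes were also lower in stomach. Hsp90aa1, the form that stress raises, read -0.19, 0.05, -0.14 and -0.32 in C stomach and 1.04, 0.90, 0.35 and 0.37 in C intestine (difference -0.81, SE 0.165, adjusted p = 0.00115). In OH rats it read -0.13, -0.15, -0.01 and -0.07 in stomach and 0.26, 0.30, 0.82 and 0.45 in intestine (difference -0.55, adjusted p = 0.0169). With the striated muscle mean as a covariate its C difference was -0.63 and no longer passed (adjusted p = 0.0638). Hsp90ab1, the constant form, differed by -0.36 (adjusted p = 0.0245) in C and -0.33 (adjusted p = 0.0423) in OH. Over 32 alternatives Hsp90ab1 was called in 26 in C and 17 in OH, and its C call was lost with the striated (adjusted p = 0.139) and the smooth muscle mean (adjusted p = 0.105) as a covariate and without C stomach array 4 or C intestine array 1 or 2. Another of its probes gave -0.14 in C and did not pass. A list of Hsp70 and Hsp90 partners and further chaperones outside the naming rule (such as Cryaa, Cryab and Serpinh1) held 24 tested genes. In C rats 3 were higher and 6 lower in stomach (all probes 22.7% and 22.3%). In OH rats 2 were higher and 6 lower, Cryaa among them (all probes 19.2% and 19.1%). Stip1, which links Hsp70 to Hsp90, had differences of 0.06 and -0.21 and did not pass in either.

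The Hsp70 family was divided. Of 12 tested genes, 3 were higher in stomach in both contrasts (Hspa1b, Hspa4l and Hspa4), Hspa14 was lower in both, and Hspa2 was lower in C only. The share higher was 25% in both (all probes 22.7% and 19.2%). The share lower was 16.7% in C and 8.33% in OH (all probes 22.3% and 19.1%). Hspa1b, the classical stress-inducible Hsp70, read 1.14, 0.40, 1.84 and 1.60 in C stomach and -0.14, -0.73, -1.35 and -0.63 in C intestine. In OH rats Hspa1b read 2.08, 1.32, 0.03 and 1.37 in stomach and -1.15, -0.94, -0.64 and -0.20 in intestine. The tissues did not overlap, although stomach arrays ranged widely within each group. The differences were 1.96 (SE 0.407, adjusted p = 0.00135) in C, a 3.88-fold higher ratio, and 1.93 (adjusted p = 0.00173) in OH. Its near-identical copy Hspa1a is not a name on this array, and probe signal from the 2 genes cannot be told apart. The 2nd probe of Hspa1b was well above background on 0 arrays of each group and was not tested. Its ratios did not repeat the difference, which rests on the brighter probe alone. With the striated muscle mean as a covariate, the C difference of Hspa1b was 1.03 and no longer passed (adjusted p = 0.150), whereas the OH difference still did.

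The Hsp110 genes Hspa4l and Hspa4, which recycle Hsp70, were higher in stomach, and neither overlapped between tissues. Hspa4l read 0.80, 0.94, 1.73 and 1.36 in C stomach and 0.08, -0.06, -0.86 and -0.45 in C intestine (difference 1.53, adjusted p = 3.03e-04). In OH rats it read 1.49, 1.09, 1.18 and 1.40 in stomach and 0.75, -0.28, -0.16 and -0.15 in intestine (difference 1.25, adjusted p = 0.00174). Hspa4 was tighter, between 0.51 and 0.75 on all 8 stomach arrays and between -0.40 and 0.21 on all 8 intestine arrays, with differences of 0.63 in C and 0.62 in OH. The 3rd Hsp110 gene, Hsph1, lay on the other side, with -0.29 in C and -0.41 in OH, and did not pass (adjusted p = 0.187 and 0.0813).

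Hspa14 and Dnajc2 encode the Hsp70 and the J protein that sit together at the ribosome and meet new chains, and both were lower in stomach. Hspa14 read 0.04, 0.05, -0.04 and -0.05 in C stomach and 1.26, 1.03, 0.88 and 0.65 in C intestine, a difference of -0.96 (SE 0.117, adjusted p = 1.38e-05). In OH rats it read -0.18, -0.16, -0.01 and -0.06 in stomach and 0.55, 0.45, 0.67 and 0.45 in intestine, a difference of -0.63 (adjusted p = 6.29e-04). Dnajc2 differed by -0.71 (adjusted p = 2.93e-04) in C and -0.65 (adjusted p = 7.63e-04) in OH. For both genes every intestine array was above every stomach array. The commonest housekeeping Hsp70, Hspa8, differed by 0.07 in C and 0.08 in OH and did not pass. Its dimmer probes gave C differences of 0.13, 0.28 and 0.56, the last with adjusted p = 0.0690, and none passed. For the probes at 0.28 and 0.56 the C tissues did not overlap, and the OH tissues did.

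**Figure D3:**
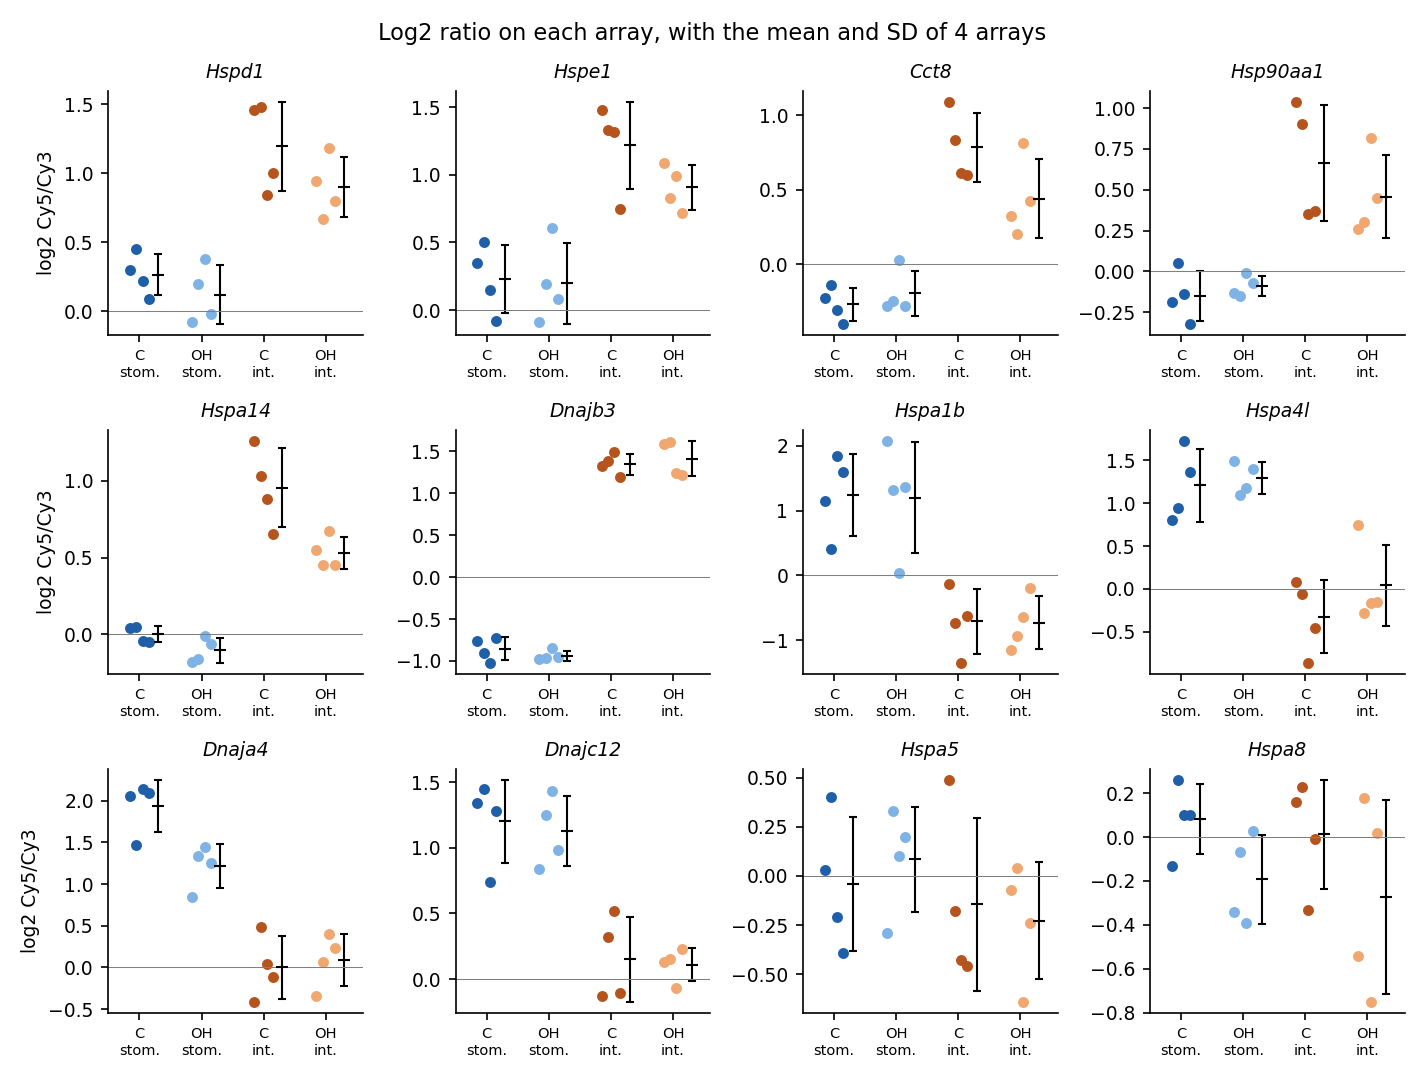
Log2 ratio of tissue over reference for 12 chaperone genes on each of the 16 arrays (points), with the mean and SD of the 4 arrays of each group (bars). Tissue levels of Hspd1, Hspe1, Cct8, Hsp90aa1, Hspa14 and Dnajb3 lie higher in both intestine groups, those of Hspa1b, Hspa4l, Dnaja4 and Dnajc12 lie higher in both stomach groups, and those of Hspa5 and Hspa8 overlap.

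Among the J proteins, which choose the clients of Hsp70, Dnajb3 had the smallest p of all 71 genes. Dnajb3, known mainly from the testis, read -0.76, -0.91, -1.02 and -0.72 in C stomach and 1.33, 1.38, 1.49 and 1.19 in C intestine. In OH rats Dnajb3 read -0.98, -0.97, -0.85 and -0.95 in stomach and 1.59, 1.61, 1.24 and 1.22 in intestine. The log2 difference was -2.20 (SE 0.116, adjusted p = 2.18e-09) in C and -2.35 (adjusted p = 1.14e-09) in OH, ratios 4.59-fold and 5.11-fold lower in stomach. Dnajc22, a membrane J protein, was lower in stomach by -1.10 and -1.17. Others lower in both contrasts included Dnajc9, a histone chaperone (-0.88 and -0.64), Dnajc24, which serves the diphthamide change of a translation factor (-0.75 and -0.39), and Dnajc5, known from synaptic vesicles (-0.56 and -0.73).

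On the other side, Dnaja4, a heat-inducible J protein, read 2.05, 1.47, 2.14 and 2.09 in C stomach and -0.41, 0.49, 0.04 and -0.11 in C intestine (difference 1.94, SE 0.218, adjusted p = 6.26e-06). In OH rats it read 0.84, 1.33, 1.44 and 1.25 in stomach and -0.34, 0.07, 0.40 and 0.23 in intestine (difference 1.12, adjusted p = 9.37e-04). Dnajc12, a partner of the aromatic amino acid hydroxylases, was higher in stomach by 1.05 (adjusted p = 3.85e-04) and 1.02 (adjusted p = 5.91e-04). Dnajc4 was higher by 0.90 and 0.83, and Dnajb2, known from neurons, by 0.89 and 0.92. In all, 2 of 4 Dnaja genes were higher and 2 lower in C stomach (50% each), and 1 and 1 in OH (25% each). Of 9 Dnajb genes, 3 were higher (33.3%) and 1 lower (11.1%) in C, and 2 (22.2%) and 1 (11.1%) in OH. Of 24 Dnajc genes, 5 were higher (20.8%) and 7 lower (29.2%) in C, and 5 (20.8%) and 9 (37.5%) in OH. For all probes it was 22.7% higher and 22.3% lower in C, and 19.2% and 19.1% in OH. Dnaja1 (-0.44, adjusted p = 0.0382) and Dnajb1 (0.32, adjusted p = 0.0110), the common cytosolic J proteins, passed in C only and in opposite directions. The call for Dnaja1 was lost under 12 of 32 alternatives (adjusted p up to 0.31), among them both muscle covariates, Cy5 alone, ANOVA with Tukey HSD and leaving out C stomach array 1, 3 or 4 or C intestine array 1, 2 or 3. That for Dnajb1 was lost under 3, Cy5 alone and both muscle covariates. Of the 2 genes for proteins that bind a heat shock protein, Hspbap1 was lower in stomach in both contrasts (-0.57 and -0.58) and Hspbp1, a nucleotide exchange factor, did not pass.

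Of 7 tested genes of the endoplasmic reticulum, 1 passed in C rats and 2 in OH rats, all higher in stomach. That was 14.3% in C and 28.6% in OH, where 22.7% and 19.2% of all probes were higher. Dnajc10, a reductase of wrong disulphide bonds, passed in C (0.71, adjusted p = 0.00287) and in OH (0.90, adjusted p = 5.63e-04), and Dnajb9 passed in OH only (0.66, adjusted p = 0.0255). Hspa5, the chief Hsp70 of this compartment, read 0.03, 0.40, -0.21 and -0.39 in C stomach, 0.49, -0.18, -0.43 and -0.46 in C intestine, -0.29, 0.33, 0.10 and 0.20 in OH stomach and -0.07, 0.04, -0.64 and -0.24 in OH intestine. All 4 groups overlapped. Hsp90b1, the Hsp90 of this compartment, differed by -0.18 in C and 0.34 in OH, and Dnajc3 by 0.36 and 0.39, and none of them passed. Of 18 further genes of folding and stress in this compartment, 3 were higher in stomach in each contrast (all probes 22.7% in C, 19.2% in OH). In each 1 was lower (all probes 22.3% and 19.1%). Xbp1, a factor of the unfolded protein response, was among the higher (0.56, adjusted p = 0.0445, in C and 0.79, adjusted p = 0.00856, in OH). Ddit3, which that response raises, was the lower one (-0.48, adjusted p = 0.0498, and -0.63, adjusted p = 0.0154). Hyou1, a partner of Hspa5, had -0.15 and 0.32 and did not pass.

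Genes known to rise with heat did not go one way. Of 13 tested, 5 were higher in C stomach (Hspa1b, Dnaja4, Hspa4l, Dnajb4 and Dnajb1) and 5 lower (Hspe1, Hspd1, Hsp90aa1, Dnaja1 and Hsp90ab1). Each was 38.5% (all probes 22.7% higher and 22.3% lower). In OH rats 3 were higher (23.1%, all probes 19.2%) and 4 lower (30.8%, all probes 19.1%). Of the 6 genes with heat shock elements of 3 units or more, Hspd1 and Hspe1, which share 1 element, were lower in stomach in both contrasts. Dnaja1 was lower in C only. Hsph1 had differences of the same sign that did not pass. Cct4 (-0.10 in C and -0.07 in OH) and Hspa8 (0.07 and 0.08) did not pass either. Hsf1, the factor that binds such elements, was higher in stomach by 0.47 (adjusted p = 3.32e-04) in C and 0.32 (adjusted p = 0.00627) in OH, the one gene of 3 tested among the heat shock factors and their binding protein that passed.

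Of 8 tested genes named as small heat shock proteins, Hspb11 among them, 1 was higher (12.5%, all probes 22.7%) and 1 lower (12.5%, all probes 22.3%) in C stomach. In OH stomach 1 was lower (12.5%, all probes 19.1%). Several stood highest on arrays where muscle markers were high. Hspb3, a small heat shock protein of muscle, read 4.37, 1.40, 3.29 and 4.61 in C stomach and -1.13, 1.18, 0.78 and -0.43 in C intestine, a difference of 3.32 (SE 0.625, adjusted p = 6.3e-04). Only 2 of the 4 C intestine arrays were well above background for Hspb3, which entered the test through the stomach groups, so the intestine level and the size of the difference are uncertain. In OH stomach it read 1.09, 1.18, 0.42 and 0.64. The 3 highest arrays, C stomach 1, 3 and 4, were the 3 with striated muscle means over 3. With that mean as a covariate the C difference was 1.49 and did not pass (adjusted p = 0.114). Hspb2, its partner in muscle, was lower in stomach in both contrasts (-1.05, adjusted p = 0.00212, and -1.13, adjusted p = 0.00145), with -1.54 to -1.33 in C stomach, -1.50 to -0.89 in OH stomach, -0.91 to -0.07 in C intestine and -0.75 to 0.39 in OH intestine. The tissues did not overlap in either treatment.

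Hspb6, Hspb7 and Hspb8, small heat shock proteins known from muscle, did not pass in either contrast. Hspb6 read 1.52, 0.38, -0.46 and 1.14 in OH stomach, against 0.05, -0.17, 0.21 and 0.17 in C stomach. Hspb8 read 1.32, 0.27, 0.23 and 0.95 in OH stomach, against 0.41, 0.21, 0.34 and 0.30. Hspb7 read 1.05, -0.03, -0.88 and 0.97, against -0.05, -1.18, -0.09 and 0.21. For each of the 3 genes OH stomach arrays 1 and 4 were the highest of all stomach arrays, and these 2 arrays also had the highest smooth muscle means. Hspa2, an Hsp70 of testis and muscle, read -2.40, -2.57, -1.18 and -1.73 in C stomach and 1.29, -1.34, -2.76 and 0.19 in OH stomach, against -0.26 to 0.91 on the 8 intestine arrays. Its C difference of -2.09 (adjusted p = 0.0181) became -0.48 with the smooth muscle mean as a covariate and no longer passed (adjusted p = 0.225). With the same covariate Hspb6 (0.45, adjusted p = 0.0155) and Hspb1 (1.30, adjusted p = 0.00293) passed as higher in C stomach, where without it they had -0.35 and 0.34 and did not pass. Cryab, another small heat shock protein of muscle, had differences of 0.14 and -0.13 and its partner Bag3 of 0.58 and 0.42, without passing. Hspb11, today named Ift25, belongs to cilia by function and did not pass either.

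**Figure D4:**
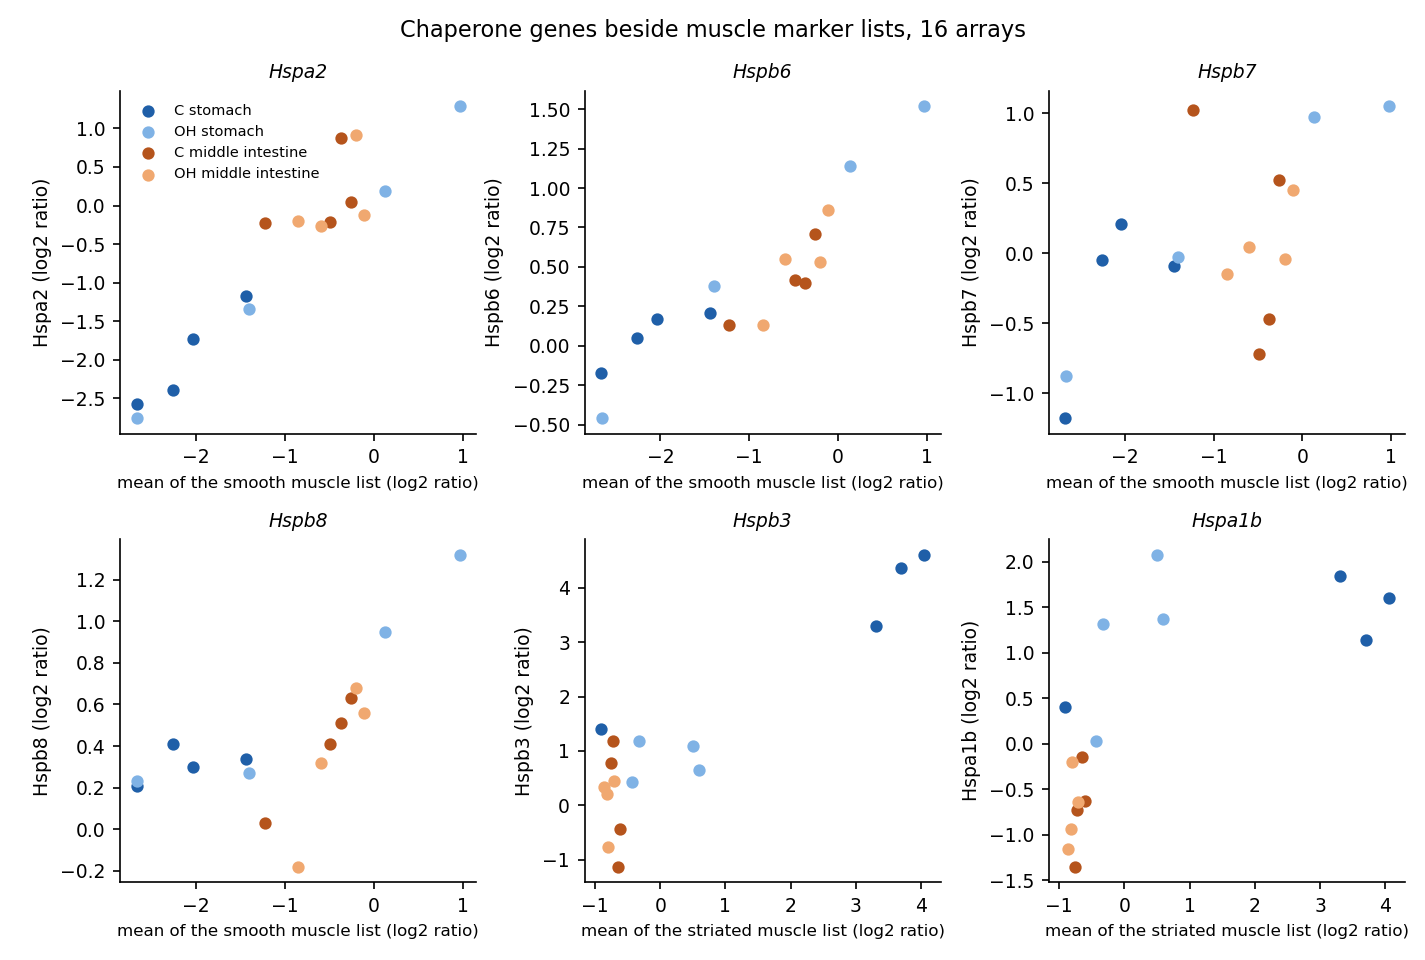
Log2 ratio of 6 chaperone genes (vertical axes) beside the mean log2 ratio of a muscle marker list (horizontal axes, smooth muscle for the first 4 and striated muscle for the last 2) on the 16 arrays, coloured by group. Hspa2, Hspb6 and Hspb8 are highest on OH stomach array 1, where the smooth muscle mean is 0.97, and Hspb3 is highest on the 3 C stomach arrays with striated muscle means of 3.31 to 4.05.

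The study's own question was the effect of obestatin within each tissue. In stomach, none of the 71 genes passed for OH in comparison to C by limma, as for all probes (0% called). At an unadjusted p under 0.05 there were 3 genes (4.23%, all probes 10.6%), namely Hspb3, Dnaja4 and Dnajb4. In the middle intestine none passed either, where 0.368% of all probes did, and 9 genes (12.7%, all probes 10.5%) had an unadjusted p under 0.05. These were Dnajc13, Dnajb4, Hspa14, Dnajb12, Hspb9, Cct3, Cct8, Dnajc24 and Dnajc7. Averaged over both tissues, 1 gene passed (Dnajc13; 0.685% of all probes did) and 10 (14.1%, all probes 14.5%) had an unadjusted p under 0.05. For the difference between the tissues' responses none passed (0% of all probes), and 4 genes (5.63%, all probes 5.85%) had an unadjusted p under 0.05.

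The 95% confidence interval of OH against C lay within 1 log2 unit of 0 for 63 of 71 genes in stomach and 65 in intestine, and the median SE was 0.17 in both. For Hspa5 in stomach the interval ran from -0.37 to 0.62, for Hspd1 from -0.50 to 0.21 and for Hspa8 from -0.70 to 0.15. For Hspa1b it ran from -0.92 to 0.82, which leaves room for nearly a 2-fold change either way. The 7 genes of the endoplasmic reticulum all had positive stomach differences, from 0.08 to 0.34, without one passing. The 7 Cct genes all had negative intestine differences, from -0.35 to -0.08, without one passing. Of all 71 genes, 39 were positive in stomach (median 0.052, all probes 0.007) and 49 negative in intestine (median -0.074, all probes 0.001). These lists were picked from several, and the shared sign was not tested.

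Dnajc13, an endosomal J protein, was the one member called for treatment. It read -1.25, -1.31, -1.36 and -1.29 in C stomach and -1.20, -0.89, -0.95 and -1.26 in OH stomach. In C intestine it read -1.05, -1.08, -1.29 and -0.63, and in OH intestine -0.38, -0.11, -0.50 and -0.34. The intestine groups did not overlap and the stomach groups did. The log2 difference was 0.68 in intestine (SE 0.138, adjusted p = 0.0510), 0.23 in stomach (adjusted p = 0.586) and 0.46 averaged (adjusted p = 0.0499). The averaged call was lost on leaving out any 1 of 14 of the 16 arrays, all but C stomach array 2 and C middle intestine array 4, with adjusted p of up to 0.113. Between C and OH intestine arrays the Cy5 signal of Dnajc13 differed by 0.04 and the Cy3 signal by -0.64. From Cy5 alone, scaled between arrays, the average was -0.24 and the intestine value -0.12. The array design gives its probe the span chr8:109272072-109273289 of rn4.

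Dnajb4, a heat-inducible J protein, also differed mainly in Cy3. It read -0.48, -0.72, -0.96 and -0.38 in C intestine and -0.14, 0.00, 0.28 and 0.23 in OH intestine, without overlap, a difference of 0.73 (SE 0.173, adjusted p = 0.0951). Its Cy5 signal differed by -0.05 and its Cy3 signal by -0.78. In stomach its difference was 0.39 (adjusted p = 0.455). Hspa14 had the opposite sign in intestine, -0.43 (adjusted p = 0.144), with Cy5 lower by -0.12 and Cy3 higher by 0.31. Over the 71 genes, the Cy3 difference was larger in size than the Cy5 difference for 48 in intestine and 32 in stomach when OH was compared with C, against 18 in the C and 7 in the OH comparison of the tissues. The same count was not made over all probes, so whether it is particular to these genes is not known. These channel differences were not scaled between arrays, so a shift in brightness between slides is part of them. With OH against C their medians over the 71 genes were 0.35 in Cy5 and 0.37 in Cy3 in stomach. In intestine the medians were 0.09 and 0.17. By the methods the reference was a common RNA pool, and why its signal differed between OH and C arrays was not tested.

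**Figure D5:**
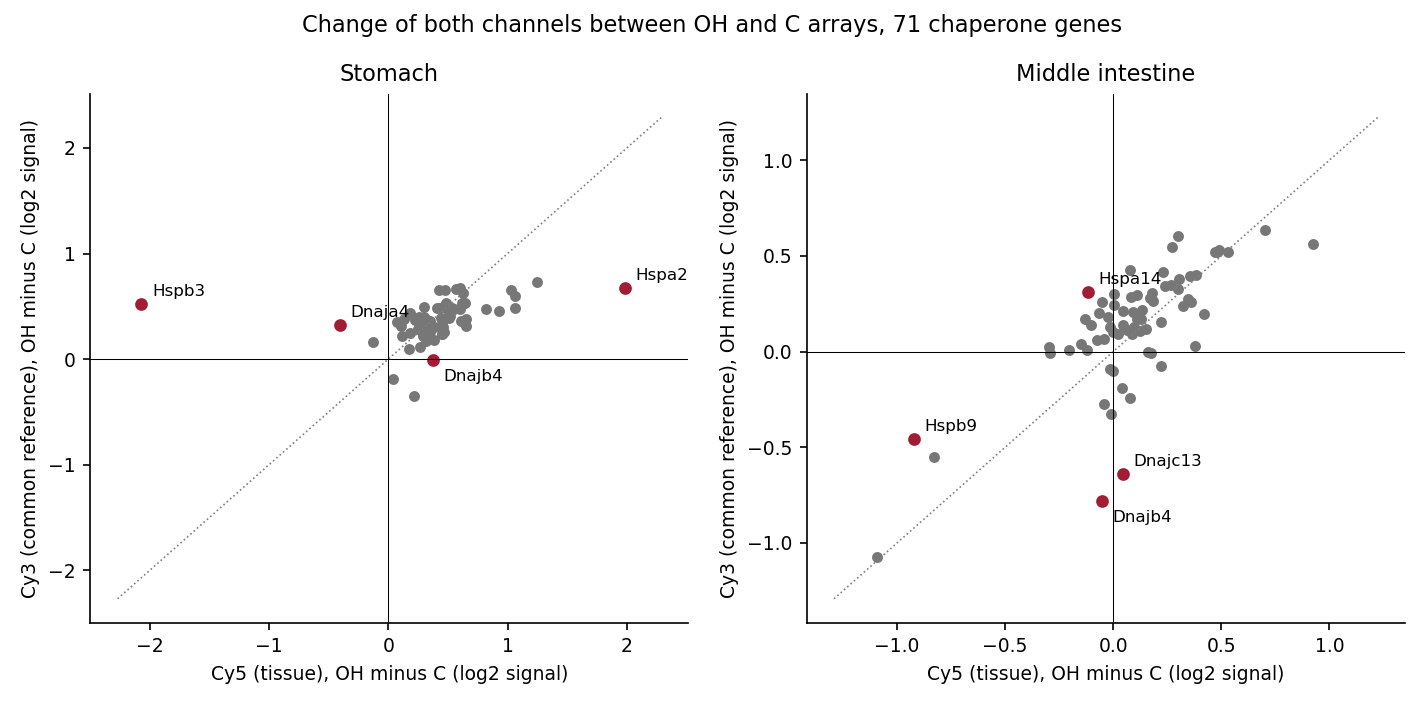
Log2 difference between OH and C arrays in the Cy5 channel (tissue, horizontal axis) and in the Cy3 channel (common reference, vertical axis) for the 71 chaperone genes in stomach and in middle intestine, with a dotted line of equal change. Genes on the line keep their ratio; Dnajc13 and Dnajb4 in intestine lie below it through Cy3 differences of -0.64 and -0.78, and Hspb3 in stomach lies left of it through a Cy5 difference of -2.07.

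In stomach the smallest p belonged to Hspb3, with a difference of -2.59 (SE 0.625, adjusted p = 0.229). C stomach array 2, at 1.40, lay far below the other C stomach arrays and was also the one with a striated muscle mean below 0 (-0.91). Without that array the difference was -3.26 and passed (adjusted p = 0.00459), and with the striated muscle mean as a covariate it was -1.19 (adjusted p = 0.456). Dnaja4 followed with -0.72 (adjusted p = 0.308), and its C stomach arrays (1.47 to 2.14) lay above its OH stomach arrays (0.84 to 1.44). Its Cy5 signal was lower by -0.40 and its Cy3 signal higher by 0.32, where the medians of the 71 genes were 0.35 and 0.37. Dnajb1 differed by -0.20 (adjusted p = 0.473) and Hspa2 by 1.32 (adjusted p = 0.498). The difference between tissues in the response was -2.54 for Hspb3, -0.81 for Dnaja4, -0.46 for Dnajc13, 0.36 for Dnajc24 and 0.42 for Cct8, with adjusted p between 0.833 and 0.836. Among the pathway genes outside the naming rule (24 partners and further chaperones, 18 of the endoplasmic reticulum, 7 of prefoldin and Tcp1, and 3 heat shock factors), none passed for treatment in either tissue or in the average. In stomach the smallest p belonged to Unc45b, a myosin chaperone of striated muscle, which read 3.35, 0.86, 2.97 and 4.19 in C and 0.30, 0.38, 0.46 and 0.49 in OH, a difference of -2.44 (adjusted p = 0.163; average -1.51, adjusted p = 0.0547). Its 3 highest arrays were again C stomach 1, 3 and 4, those with the high striated muscle means, and the part of muscle in this difference was not tested. In intestine it belonged to the prefoldin subunit Pfdn2 (-0.39, adjusted p = 0.0779). Cdc37, which brings kinases to Hsp90, was lower in OH without overlap in both tissues (-0.22 in stomach, -0.29 in intestine, average adjusted p = 0.0754), and Hsf1 had -0.23 in stomach (adjusted p = 0.378), also without overlap.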

How the data were processed

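The measurements were 16 two-colour Agilent whole-genome rat arrays (design build rn4), each with the RNA of 1 rat. Per the file headers, the intensity values had been made by Feature Extraction 10.10.1.1 (10.7.3.1 per the labels) by background subtraction, spatial detrending and Lowess dye normalization within each array. The authors also deposited a log10 table of Cy5 over Cy3, which matched the log ratios in the array files within 0.005 and served as an alternative. The signals of the first OH stomach array were saved rounded.

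Here log2 of the processed Cy5 over Cy3 intensities was taken without scaling between arrays. Control and outlier spots were left out and spots of a probe averaged. A probe was kept if some group had it well above background in Cy5 on each of its 4 arrays and every group had 3 values or more (21170 of 30367, 69.7%). limma 3.58.1 under R 4.3.3 was fitted to 1 mean per group over all arrays, with Benjamini-Hochberg adjustment over all probes kept and a threshold of 0.05. The fit was tested on simulated data. Because each group lay on 1 slide, slide could not be a block. The rats of a treatment came from 4 litters. The methods speak of 4 rats per treatment sampled for stomach and intestine, and also of each array as a rat of its own, so whether same-treatment stomach and intestine arrays share rats is not settled, and the labels do not tie arrays to rats or litters. The p-values cover the spread between these samples only, and 4 arrays a group limit the precision.

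The genes, the lists (family, place in the cell, heat-inducible, cell type markers, partners, heat shock factors, prefoldin, endoplasmic reticulum stress) and the rule for naming were chosen with earlier results of these data known. Named were 20 fixed genes (Hspa1a among them is not on the array), up to 8 in each direction per tissue contrast among those passing without overlap, and per treatment contrast those passing or else the 5 with the smallest p. Genes named outside this rule were chosen after their values were seen. The muscle covariates and the replicate block within treatment were chosen after seeing the data. Of the other cell type lists, in C rats 5 of 8 tested leukocyte genes and 5 of 8 enteric neuron genes were lower in stomach, and 8 of 11 pancreas, 9 of 10 forestomach and 1 of 5 erythroid genes were higher. Of 8 immediate early genes 0 passed in C rats and 2 were lower in stomach in OH rats. No gene of any cell type list passed for treatment. Alternatives were other background correction and dye normalization, scaling, centring, filters, Cy5 alone, probe choice, test, replicate block, arrays in the fit, and leaving out each array. Promoters came from RefSeq (GRCr8) and were matched by symbol. Whether a probe lies in coding sequence or UTR was not determined.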

Additional observations from a re-analysis of the deposited data

Results flagged for a closer look

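Among the 4 arrays of each group, 6 values of 156 gene and group combinations lay far from the other 3 arrays of their group by Dixon's test at the 95% level, which chance alone gives in about 1 of 20. Dnaja1 read -0.29 on C stomach array 1 (others 0.07 to 0.08). Cct8 read 0.03 on OH stomach array 3 (others -0.28 to -0.25). Dnaja4 read 1.47 on C stomach array 2 (others 2.05 to 2.14), the C stomach array with a striated muscle mean of -0.91 against 3.31 to 4.05 on the others. Hspa4l read 0.75 on OH middle intestine array 1 (others -0.28 to -0.15). Hspa2 read 0.91 on OH middle intestine array 4 (others -0.26 to -0.12), which was also the intestine array with the highest mean of the pancreas list, -1.46 against -3.05 to -2.82 on the other OH intestine arrays. Their part in the values was not tested. Dnajc5 read 0.31 on C stomach array 3 (others 0.54 to 0.58).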

How the results depend on the processing

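Of the 28 genes called in both tissue contrasts, 18 were called in both under every one of 32 alternatives (Hspa4l under those that keep it). The other 10 were Hsp90ab1 (called in 26 in C and 17 in OH), Dnajc15 (24 and 17), Hsp90aa1 (31 and 31), Dnajc5 (31 in C), Dnajc24 (30 in OH), Dnajc17 (18 in OH), Dnajc8 (27 in OH), Cct3 (31 in OH), and Hspe1 and Hspa1b (31 in C each). Apart from leaving out arrays, the alternatives gave 28 to 37 calls in C (28 with the striated muscle covariate, 30 by ANOVA with Tukey HSD) and 27 to 35 in OH, and leaving out 1 array gave 31 to 36 in C and 25 to 33 in OH. Sizes moved more than counts: the C differences ran from 1.03 to 2.86 for Hspa1b, -3.08 to -0.48 for Hspa2, 1.49 to 3.99 for Hspb3 and -0.69 to -0.08 for Dnajc15, with the muscle covariates at an end for the first 3. The call of Hspa2 was also lost by ANOVA and without C middle intestine array 4. Cct2 passed in C under 11 of 32.

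For treatment, the average over tissues had 1 call, and it had 0 with centring, with the deposited log10 table, with 1 probe per gene, with the median of probes, and with the striated muscle covariate. It had 2 with scaling between arrays (Dnajb4 and Hspa14), 3 without a filter (Dnajc13, Dnajb4 and Dnajc5g), 2 with the filter on all 16 arrays (Dnajc13 and Dnajb4), and with Cy5 alone its 1 call was Hspa8 (-0.39, adjusted p = 0.0456) and not Dnajc13. Dnajc5g had not passed the background filter of the main fit. How many of all probes were called was not counted under any alternative, so whether such changes are particular to these genes is not known. The intestine had 0 calls, but 1 with normexp and loess, 1 with centring, 1 with the filter on all 16 arrays and 1 with the smooth muscle covariate (Dnajc13 each time), 2 with scaling (Dnajb4 and Hspa14), 3 without a filter and 4 by the methods' ANOVA with Tukey HSD (Cct3, Dnajb4, Dnajc13 and Hspa14). The stomach had 0 calls, but 2 without a filter (Hspb3 and Dnajc5g) and 2 by ANOVA with Tukey HSD (Hspb3 and Dnaja4). For the latter test the ANOVA over all 4 groups was adjusted over the probes, and tissue differences alone can pass it. The Tukey p of each contrast was not adjusted over probes, so its calls are not on the scale of the limma calls. Leaving out 1 array gave 0 to 3 calls in the average, 0 to 1 in intestine, 0 to 1 in stomach and 0 for the difference between tissues. Without OH stomach array 3 the 1 call in the average was Dnajb4 and not Dnajc13. The highest counts came without C stomach array 2 (Dnajc13, Dnajb4 and Hspb3 in the average, Hspb3 in stomach) and without C middle intestine array 4 (Dnajc13 in intestine), and the average fell to 0 without C stomach arrays 1, 3 or 4, OH stomach arrays 1, 2 or 4, C intestine arrays 1, 2 or 3, or any 1 OH intestine array. The cause was not tested. No scaling moved the median of all probes by over 0.1.

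With Cy5 alone the sign turned for Dnajb4 (-0.217 in intestine, -0.019 in stomach) and Dnajc13 (-0.238 in the average, -0.12 in intestine), and in the C tissue contrast for Hsp90b1 (0.049), Hspa8 (-0.083), Hspa9 (-0.048) and Hspb8 (0.155). Scaling turned Hspa9 (-0.005). The smooth muscle covariate turned Hspa2 in stomach (-0.136) and, in the C tissue contrast, Hspa5 (-0.07), Hspa9 (-0.119), Hspb6 (0.447), Hspb7 (0.349) and Hspb8 (0.438), and the striated muscle covariate turned Hsp90b1 (0.454) and Hspb1 (-0.695). Leaving out 1 array gave -0.382 to 0.024 for Hsp90b1, -0.047 to 0.313 for Hspa5, -0.045 to 0.143 for Hspa8 and -0.032 to 0.189 for Hspa9. None of these genes had passed in the contrast given, apart from Dnajc13 in the average.

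The r of deviations between same-numbered arrays was -0.40 to 0.51 between C and OH arrays of a tissue. Between stomach and intestine of a treatment it was 0.143, 0.175, 0.059 and 0.246 in C, with the own number the best match for 3 of 4, and -0.123, 0.198, 0.022 and 0.322 in OH. Since not every pair was over 0.1, the numbers were not taken as pairs, which leaves shared rats possible. With the replicate block the average had 0 calls, C tissues 35, OH tissues 31 and the others 0. With the replicate block within treatment C tissues had 34 and OH tissues 29, the difference between tissues 0, and among the named genes the C calls of Cct2 and Dnaja1 were lost.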
